A study of Mus musculus with 6 samples.

Results

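The genes described here encode 10 factors that shorten the poly(A) tails of mRNAs or read AU-rich elements and microRNA sites in them: Zfp36, Zfp36l1, Zfp36l2, Btg1, Cnot1, Cnot6, Cnot7, Pan3, Elavl1 and Ago2. They were taken by symbol from a table of 23281 genes, which held 10 of 10. The table came from nuclear RNA of female mouse embryonic stem cells with a 129S X Cast background. Every culture carried the same altered Xist locus, with a TetOn promoter in place of the endogenous one on the 129S allele and a Bgl stem-loop at the 3′ end of Xist. The title of every library begins with the name BglHalo. Every culture also received 1 µg/ml doxycycline (17.5 to 20 h) and then 500 µM 4-thiouridine (4sU) with doxycycline for 4 h. The cultures differed in the time after 4sU was removed, which was 0, 30, 60, 90, 120 or 150 min in medium with doxycycline and 50 mM uridine, except that the 0 min culture was not washed. All cultures were harvested together, so a longer washout went with an earlier start of labelling. There was 1 library per time and no untreated, unlabelled or uninduced culture in the table.

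4sU is built into new RNA and, after alkylation, is read as a T-to-C (T>C) change, so reads divide into a labelled share, made during the pulse, and an unlabelled share. The washout follows how long labelled RNA stays in the nucleus. RNA that is degraded and RNA that is exported both leave it, and these routes cannot be told apart here. Times refer to the columns of the table as read from their names, in which a number stands for the washout without its last zero and no number for 0 min. Every slope rests on that reading.

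Most mRNA decay begins at the poly(A) tail. The Pan2-Pan3 complex is known to trim long tails, and the CCR4-NOT complex removes the rest, with Cnot6 and Cnot7 as catalytic subunits on the scaffold Cnot1. Zfp36 (tristetraprolin) and its relatives Zfp36l1 and Zfp36l2 are CCCH zinc finger proteins that bind AU-rich elements in 3′ untranslated regions (3′ UTRs) and bring CCR4-NOT to the mRNA. Btg1 contacts the Cnot7 type of nuclease and stimulates deadenylation, and Ago2 is the Argonaute that carries microRNAs to their targets. Elavl1 (HuR) binds AU-rich elements too and is known mainly for stabilising mRNAs.

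The AU-rich nonamer that tristetraprolin prefers is shown for the members that carry it, because the Zfp36 mRNA is itself a known target of such decay. In GENCODE M21 (GRCm38), the nonamer TTATTTATT occurred on the sense strand of the longest annotated 3′ UTR in 5 of 10 members, against 8.44% of 11273 tested genes with such a 3′ UTR. Each of the 3 CCCH genes had 1 copy, Elavl1 had 8 copies, most of which overlap a neighbour, and Ago2 had 2. The sites are printed 5′ to 3′ on the mRNA strand with the nonamer in capitals, and the first of the Elavl1 copies stands for all of them.
Zfp36, chr7:28376951-28376979, minus strand: tatgacgactTTATTTATTgtattaagat
Zfp36l1, chr12:80108167-80108195, minus strand: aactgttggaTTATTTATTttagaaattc
Zfp36l2, chr17:84184914-84184942, minus strand: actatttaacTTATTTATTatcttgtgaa
Elavl1, chr8:4285788-4285816, minus strand: gtcatgaaaaTTATTTATTtatttattta
Ago2, chr15:73105733-73105761, minus strand: caaatggaatTTATTTATTcttccattgc
Ago2, chr15:73097839-73097867, minus strand: ataatactttTTATTTATTttgtgccttt

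A longer 3′ UTR has more chances to hold these letters. Among 3′ UTRs within 25% of its own length, the nonamer was present in 4.96% for Zfp36 (774 nt), 9.41% for Zfp36l1 (1835 nt), 9.21% for Zfp36l2 (1822 nt), 16.9% for Elavl1 (4218 nt) and 50.6% for Ago2 (11064 nt). The core pentamer ATTTA, which lies inside the nonamer, occurred in the 3′ UTR of all 10 members, against 71.5% of the 11273 tested genes. In 8 of them it was more frequent than in the median 3′ UTR of like length, and Cnot1 (1 copy in 956 nt) and Pan3 (4 copies in 2750 nt) were at that median. Zfp36l1 had 9 copies and Elavl1 17, more than 95.1% and 96.4% of 3′ UTRs of like length. Btg1 had 11 copies in 4166 nt and Cnot6 13 in 3690 nt, both without the nonamer. A match is a description of letters and shows no binding.

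By slope with equal weight on each library, label was lost fastest from the CCCH genes and Btg1, and more slowly from Cnot6 and Pan3. It was lost slowest or not detectably from Cnot7, Elavl1, Ago2 and Cnot1. No pair of members differed after adjustment. Weighting the libraries changed the order, with Cnot6 then above Zfp36l2, Btg1 and Zfp36l1. The labelled share fell over the washout in 8 of 10 members by limma, which tested the slope of its natural log on time (Benjamini-Hochberg adjusted p under 0.05 over 11462 genes). In the same test 52.3% of all genes fell (5996 genes, and 3594 without the 150 min library), so the count is read against that. The median decline was 0.562 per h over the members and 0.247 per h over all genes tested, and 7 of 10 members were above the median of all genes. Half-lives are ln 2 divided by the decline, which takes the total level of a gene as constant over the washout. They and their 1 SE ranges are for the fit with equal weights. All ± values on slopes are standard errors from 6 libraries. For labelled share and T>C rate these are limma's moderated errors, in which each gene's variance is drawn towards that of all genes tested. For pairs of members they are plain least-squares errors, and for total reads they were derived from edgeR's F statistic. With 1 culture per time, p-values measure the scatter of the libraries around a line, moderated in limma, and not a spread between cultures.

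Libraries held 18558073 to 28535162 reads counted to genes. Summed over genes, the T>C rate was 4.05%, 2.69%, 4.11%, 2.57%, 1.55% and 1.17% at 0, 30, 60, 90, 120 and 150 min, so the 60 min library stood above the 30 min library. Embryonic stem cell markers (8 of 8 in the table, none at 0) summed to 2558 to 3042 CPM (a gene's reads scaled to 1000000 reads per library, with TMM factors). Fibroblast markers (13 of 13 in the table) summed to 2619 to 4068 CPM, highest at 0 min, although cells had been pre-plated to discard feeders. Fn1 alone had 2248 to 3572 CPM, so the sum was mostly that of 1 gene. The next highest marker, Col1a2, had 100 to 166 CPM. In the 150 min library 1 marker was at 0, and in the others none was. The part of feeder RNA in the members' values was not tested. In bulk RNA, fewer cells of a type and less RNA per cell cannot be told apart.

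Zfp36 (ENSMUSG00000044786; chr7:28376784-28380253, minus strand, 2 exons) had the steepest decline of labelled share among the members. Its labelled share was 75.7%, 44.3%, 56.2%, 15.9%, 11.2% and 11.98% at 0, 30, 60, 90, 120 and 150 min. The 3 late libraries were all far below the 3 early ones. The half-life was 49.8 min (43.5 to 58.3 at 1 SE; decline 0.834 ± 0.122 per h, limma adjusted p = 6.99e-05), a faster decline than 94.5% of genes tested. Zfp36 was also the least covered member, with 123 to 197 reads per library, and its posterior 5% to 95% range at 150 min ran from 6.76% to 18.3%.

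Zfp36l1 (ENSMUSG00000021127; chr12:80107754-80113013, minus strand, 3 exons) began with the highest labelled share of the members. The shares were 87.5%, 68.7%, 81.7%, 44.2%, 23.0% and 16.3% in order of time, with 622 to 1239 reads. Zfp36l2 (ENSMUSG00000045817; chr17:84183931-84187947, minus strand, 2 exons) had 77.0%, 63.6%, 74.6%, 38.5%, 22.6% and 12.4%, with 1384 to 2522 reads. In both genes the 60 min share lay closer to the 0 min share than the 30 min share did, and the share was lower at each later time. Half-lives were 59.1 min for Zfp36l1 (51.3 to 69.9 at 1 SE; limma adjusted p = 9.13e-05) and 56.4 min for Zfp36l2 (48.9 to 66.4; limma adjusted p = 8.53e-05). With each library weighted by the width of its posterior range, the call for Zfp36l1 was lost (adjusted p = 0.0788). The paralogs differed in slope by 0.03 ± 0.04 per h, which did not pass (two-sided exact permutation p = 0.497).

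Btg1 (ENSMUSG00000036478; chr10:96617006-96622809, plus strand, 2 exons) lost label at a rate next to that of Zfp36. Its labelled share was 85.9%, 50.5%, 72.8%, 36.5%, 20.9% and 10.5% over the same libraries. The 150 min share was the lowest of any member in any library. The half-life was 52.6 min (45.8 to 61.7 at 1 SE; limma adjusted p = 7.52e-05), and the call was lost with the posterior weights (0.0513). Btg1 also showed the widest excursion at 60 min, where its share exceeded that of the 30 min library by more than in any other member.

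**Figure D1:**
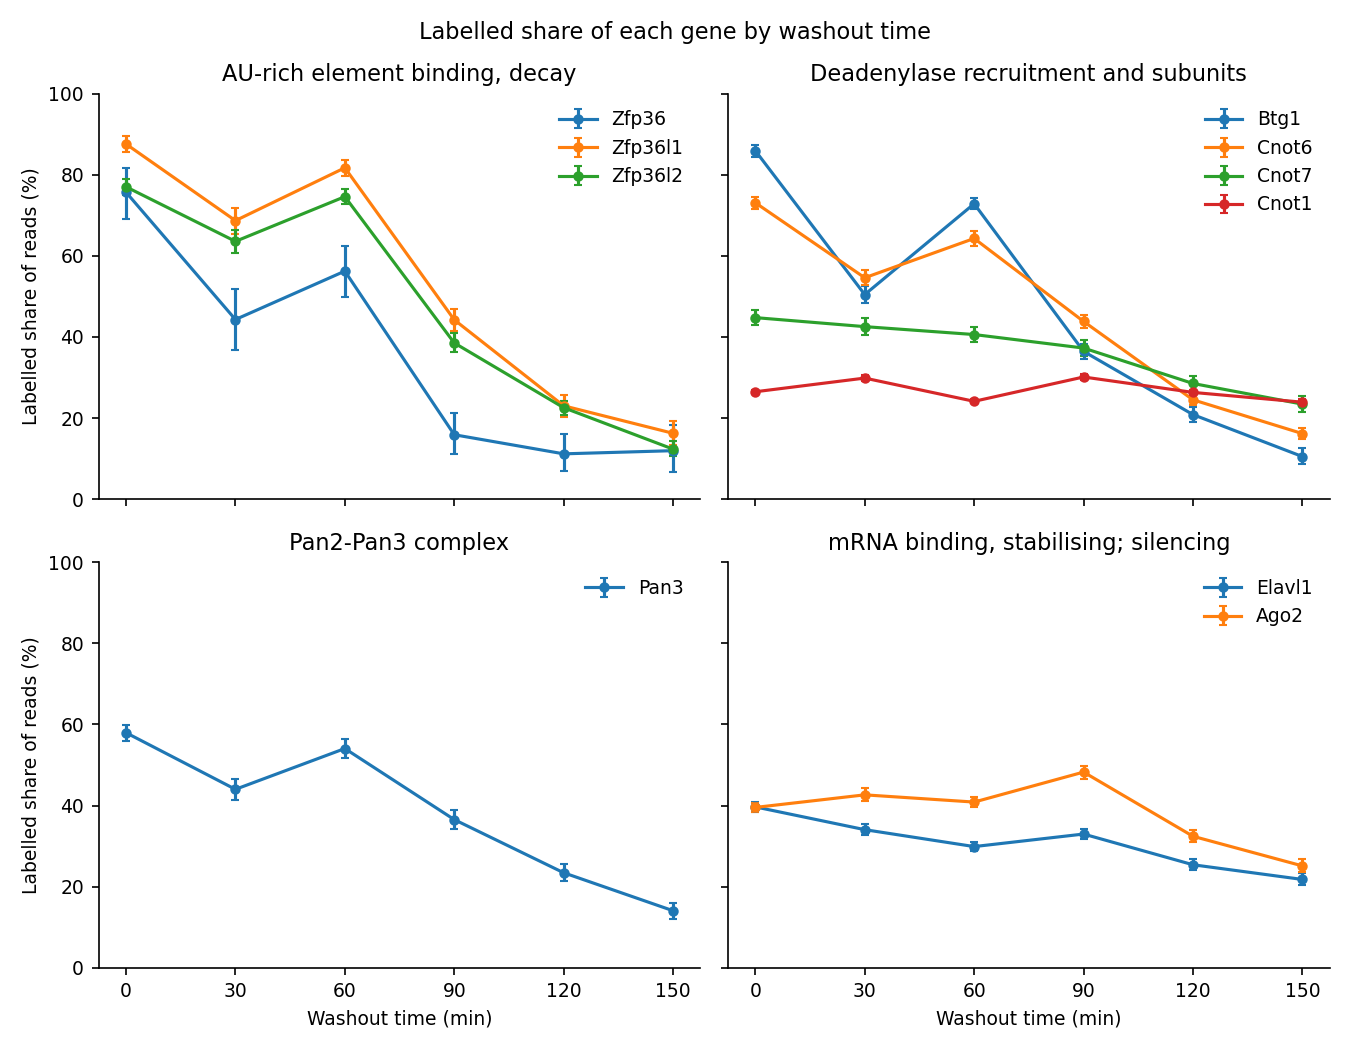
Labelled share of reads (%, vertical axis) by washout time (min, horizontal axis) for the 10 genes in 4 panels by role, with 1 library per point and bars for the posterior 5% to 95% range within that library. The CCCH genes, Btg1 and Cnot6 lay between 10.5% and 16.3% at 150 min against 73.1% to 87.5% at 0 min, while Cnot1 ranged from 23.9% to 30.1%.

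The subunits of CCR4-NOT spread over most of the range of the members. Cnot6 (ENSMUSG00000020362; chr11:49671503-49712723, minus strand, 12 exons), a nuclease of the exonuclease-endonuclease-phosphatase type, was 73.1%, 54.6%, 64.3%, 43.8%, 24.5% and 16.2% labelled. Its half-life was 70.5 min (60.0 to 85.5 at 1 SE; limma adjusted p = 0.000216). Cnot7 (ENSMUSG00000031601; chr8:40492540-40515847, minus strand, 7 exons), the DEDD-type nuclease that BTG proteins contact, was 44.8%, 42.6%, 40.6%, 37.3%, 28.5% and 23.4% labelled. Unlike Cnot6, its shares declined at every step, with no higher value at 60 min. The Cnot7 half-life was 161 min (120 to 245 at 1 SE; limma adjusted p = 0.0215). This call was lost without the 0, 30, 120 or 150 min library (adjusted p = 0.0535, 0.0724, 0.0954 and 0.204) with the share replaced by labelled abundance (0.159), with posterior weights (0.0772) and without both the 30 and 60 min libraries (0.0631).

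Cnot1 (ENSMUSG00000036550; chr8:95719451-95807464, minus strand, 49 exons) showed no detectable loss of label. The shares were 26.5%, 29.9%, 24.1%, 30.1%, 26.3% and 23.9%, in libraries with 10943 to 18709 of its reads. They varied by less than 7 percentage points and followed no order in time. The decline was 0.04 ± 0.09 per h (limma adjusted p = 0.751), faster than that of 23.2% of genes tested. A half-life from this slope has no upper bound at 1 SE, and the lower bound is 328 min. Cnot6 declined faster than Cnot1 by 0.552 ± 0.124 per h and faster than Cnot7 by 0.332 ± 0.0762 per h (two-sided exact permutation p = 0.0194 and 0.0139, each 0.0547 when adjusted over 45 pairs), and neither passed.

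Pan3 (ENSMUSG00000029647; chr5:147430161-147548502, plus strand, 19 exons), the regulatory subunit of the Pan2-Pan3 nuclease, resembled Cnot6 in shape at a lower starting share. The labelled shares of Pan3 were 57.9%, 44.0%, 54.0%, 36.5%, 23.4% and 14.1%, with 1084 to 1481 reads. The half-life was 77.8 min (65.2 to 96.4 at 1 SE; limma adjusted p = 0.000476). Pan2, its catalytic partner, had a half-life of 117 min and was 40.7% labelled at 0 min.

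Elavl1 (ENSMUSG00000040028; chr8:4285382-4325413, minus strand, 6 exons) lost label slowly. Its shares were 39.7%, 34.0%, 29.9%, 33.0%, 25.4% and 21.8%, with 2936 to 4395 reads. The half-life was 193 min (137 to 324 at 1 SE), and the adjusted p of 0.0486 by limma was just under the threshold. The call was lost with the 30 and 60 min times exchanged (adjusted p = 0.0505), without a read minimum (0.0774) and without the 0, 30, 120 or 150 min library (0.197, 0.126, 0.169 and 0.264). It was also lost with labelled abundance (0.0556), with posterior weights (0.1) and without both the 30 and 60 min libraries (0.0817). Ago2 (ENSMUSG00000036698; chr15:73095844-73184935, minus strand, 19 exons) was 39.5%, 42.6%, 40.9%, 48.2%, 32.4% and 25.1% labelled. Its highest share came at 90 min and only the last 2 libraries lay below the 0 min share. No slope was detected in Ago2 (decline 0.167 ± 0.0972 per h, limma adjusted p = 0.164).

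The order of decline, from fastest, was Zfp36, Btg1, Zfp36l2, Zfp36l1, Cnot6, Pan3, Cnot7, Elavl1, Ago2 and Cnot1. No pair of neighbours in that order passed after adjustment over all pairs. The widest gap between neighbours was between Pan3 and Cnot7, at 0.277 ± 0.0797 per h (two-sided exact permutation p = 0.0222, 0.0588 when adjusted over 45 pairs). Of all 45 pairs, 0 passed after Benjamini-Hochberg adjustment, and 27 had an unadjusted exact p under 0.05. The smallest p that 720 orderings of the times allow is 0.00278, and the smallest reached was 0.0111, for Elavl1 against Cnot1. Without the 60 min library 26 pairs passed, and with the 30 and 60 min times exchanged 27 passed. The order itself depended on the setting. With posterior weights, Cnot6 (slope -0.419 per h) declined faster than Zfp36l2 (-0.391), Btg1 (-0.373), Pan3 (-0.369) and Zfp36l1 (-0.319). With labelled abundance in place of the share, Btg1 was steepest (-1.01 per h, against -0.793 for Zfp36). Pan3 (-0.485) was then steeper than Cnot6 (-0.431).

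**Figure D2:**
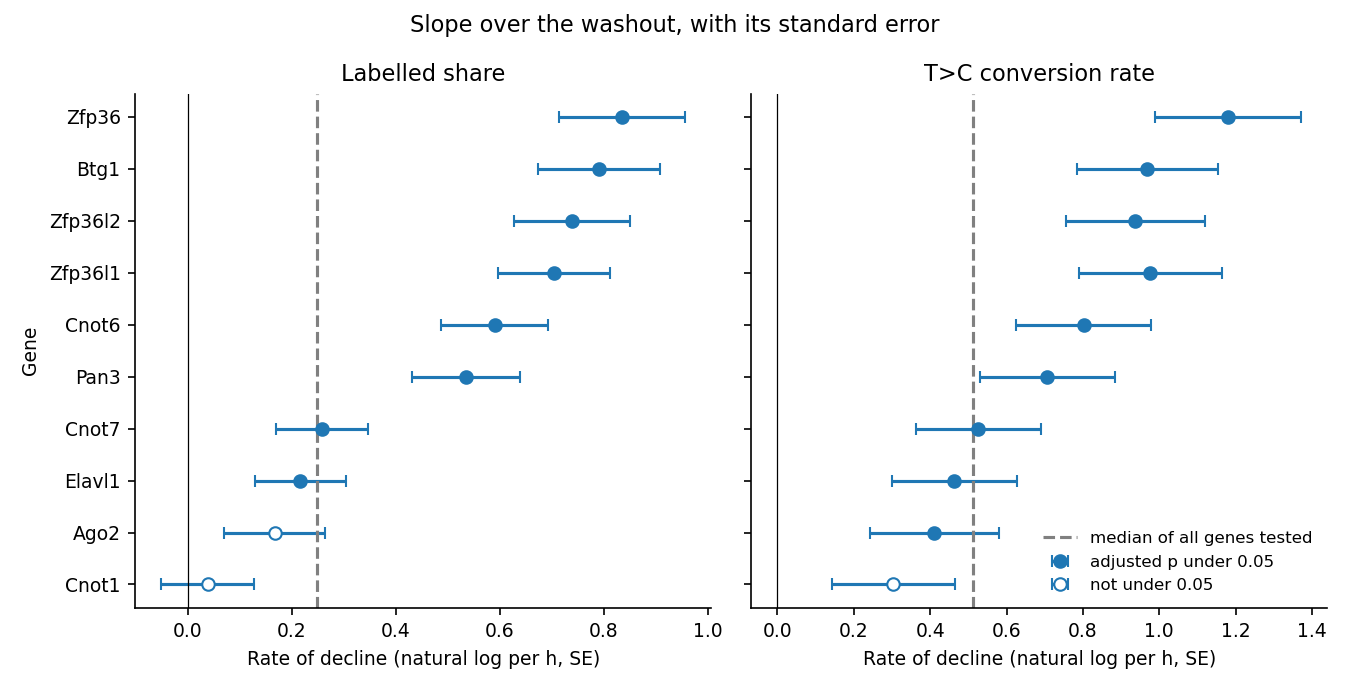
Decline per hour of the natural log of the labelled share (left) and of the T>C rate (right) for each gene, with standard errors from 6 libraries, filled points for an adjusted p under 0.05 by limma and a dashed line at the median of all genes tested. On the left the points run from 0.834 per h for Zfp36 to 0.04 per h for Cnot1, and 7 of 10 lie right of the median of 0.247 per h.

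The members with the AU-rich nonamer stood at both ends of this order. The CCCH genes, with 1 copy each, had half-lives of 49.8 to 59.1 min, whereas Elavl1 with 8 copies had 193 min and no slope was detected in Ago2 with 2. Btg1, Cnot6 and Pan3, without the nonamer, had 52.6, 70.5 and 77.8 min. Over all tested genes, 67.3% of 952 with the nonamer fell in labelled share, against 50.7% of 10321 without it. Their 3′ UTRs had medians of 2348 nt and 1134 nt, so the nonamer and the length of the 3′ UTR moved together. Neither was tested as a cause of label loss, which includes export from the nucleus.

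The raw T>C rate, conversions over covered T positions, gave a similar picture with steeper slopes. It fell in 9 of 10 members by limma, against 66.9% of the 11459 genes tested, with Cnot1 the exception (limma adjusted p = 0.0949). For Zfp36 the rate was 7.58%, 2.56%, 5.29%, 1.07%, 0.434% and 0.486% in order of time. The 150 min value rested on 11 conversions in 2264 covered T positions (95% Wilson interval 0.272% to 0.868%, counting error only). For Zfp36l1 it was 8.99%, 4.56%, 9.95%, 2.91%, 1.10% and 0.883%, higher at 60 min than at 0 min. Cnot1 had rates of 2.76%, 2.07%, 2.73%, 2.15%, 1.43% and 1.25%, with the 120 and 150 min values below all others. Its labelled share was 26.3% at 120 min, near the 26.5% at 0 min, and lowest at 150 min (23.9%).

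The T>C rate of Cnot1 halved in 137 min by its slope, and its fall passed without the 60 min library (limma adjusted p = 0.0244), without both the 30 and 60 min libraries (0.0236) and with those times exchanged (0.00291). Ago2 fell by this measure (halving time 101 min, limma adjusted p = 0.0371) and not by labelled share. That call was lost without the 0, 120 or 150 min library (adjusted p = 0.0983, 0.137 and 0.354). Without the 150 min library, 5 members and 2643 genes fell in T>C rate, and the calls lost besides were those of Cnot7, Elavl1 and Pan3 (adjusted p = 0.133, 0.199 and 0.0862). The calls for Cnot7 and Elavl1 were also lost without the 0 min library (0.0718 and 0.117), and that for Elavl1 without the 120 min library (0.0797). The rate summed over genes was also lower in the late libraries. The median decline of the T>C rate was 0.754 per h over the members, against 0.512 per h over all genes tested.

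The labelled share before any washout gives a second measure of turnover that uses no later library. That share is also the first point of each washout slope, so the orders by uptake and by slope are not independent. Taking a steady level over the 4 h pulse, it corresponds to a half-life of 79.8 min for Zfp36l1, 84.9 min for Btg1, 113 min for Zfp36l2, 118 min for Zfp36 and 127 min for Cnot6. The slower members had 192 min (Pan3), 280 min (Cnot7), 329 min (Elavl1), 331 min (Ago2) and 540 min (Cnot1). From the fifth place on, this order was that of the washout slopes. The ranges from posterior 5% and 95% quantiles overlapped for Elavl1 (317 to 342 min) and Ago2 (319 to 343 min). Each uptake value except that of Cnot1 was longer than the washout half-life of the same gene. The value for Zfp36 carries the widest relative range (98.1 to 141 min from its posterior 5% and 95% quantiles).

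Total reads of the members did not change detectably. By edgeR's quasi-likelihood test of the slope of counts on time, 0 of 10 members passed, and 0% of 15743 genes did. At an unadjusted p under 0.05 there were 3416 genes, 2 of them members, and DESeq2 called 341 genes lower and 309 higher with time. Without the 60 min library edgeR called 635 genes lower and 778 higher, against 40 and 1 without the 0 min library and 1 and 1 without the 30 min library. Btg1 had 84.3, 99.8, 122, 86.5, 70.6 and 51.0 CPM, highest at 60 min and lowest at 150 min (slope -0.33 ± 0.12 log2 per h, edgeR adjusted p = 0.16). Zfp36l2 had 69.6, 67.2, 72.3, 67.9, 98.5 and 81.7 CPM, with the 120 and 150 min libraries above the other 4 (slope 0.16 ± 0.07 log2 per h, edgeR adjusted p = 0.228). With the 30 and 60 min times exchanged, Btg1 fell (-0.37 log2 per h, edgeR adjusted p = 0.0251), and Cnot6 (0.31, 0.0203) and Cnot7 (0.20, 0.046) rose.

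The other members had slopes with an unadjusted p above 0.05. Zfp36 had 6.13 to 7.88 CPM, Zfp36l1 33.8 to 48.2, Cnot7 57.0 to 91.1, Pan3 41.4 to 61.0 and Cnot6 67.9 to 122. Elavl1 had 147 to 168 CPM, Ago2 131 to 166 and Cnot1 501 to 659. Cnot6, Cnot7, Pan3 and Ago2 each had their lowest CPM at 60 min, and Btg1 its highest.

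In 6 of 10 members (the CCCH genes, Btg1, Cnot6 and Pan3) labelled reads outnumbered unlabelled reads at 0 min and were fewer at 150 min. This follows from their labelled shares, and the same count over all genes is not given here. Labelled reads of Btg1 were 5.37 CPM at 150 min against 72.4 CPM at 0 min, and unlabelled reads were 45.6 CPM against 11.9 CPM. Zfp36l1 had 28.3 unlabelled CPM at 150 min against 5.43 at 0 min, a 5.22-fold level and the highest ratio of the members. The same ratio was 4.68 for Cnot6, 4.47 for Zfp36l2, 3.95 for Zfp36, 3.84 for Btg1 and 2.39 for Pan3. It was 1.91 for Cnot7, 1.41 for Elavl1, 1.13 for Ago2 and 0.935 for Cnot1. These ratios compare 1 library with 1 library and have no test.

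**Figure D3:**
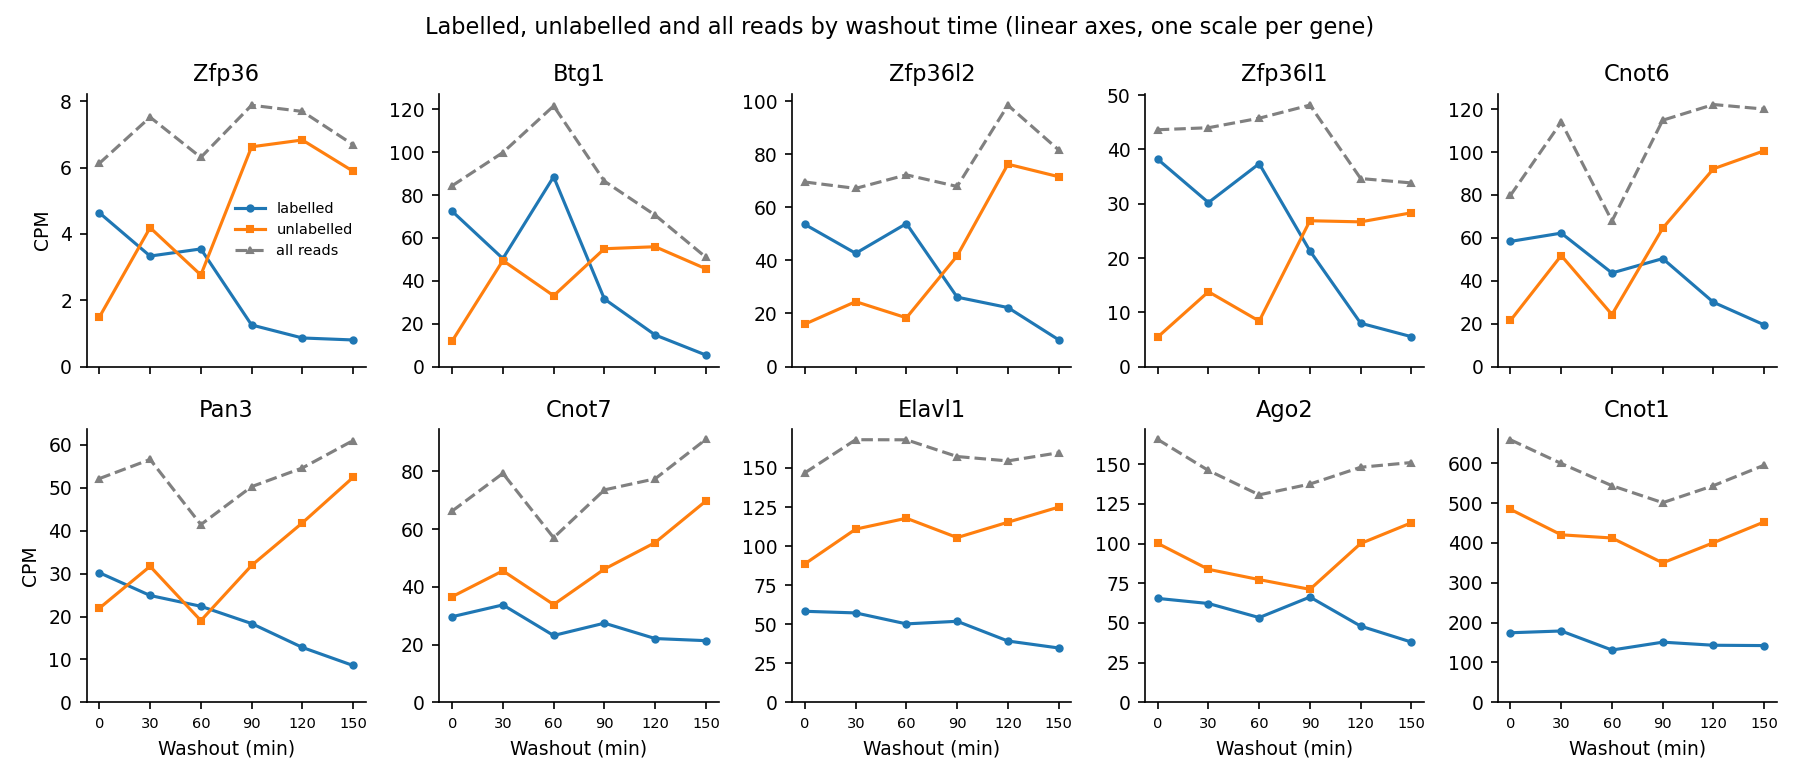
Labelled, unlabelled and all reads in CPM (vertical axes, linear, a separate scale for each gene) by washout time (min) for the 10 genes, from fastest to slowest decline, with 1 library per point. Labelled reads of Zfp36l2 were 10.1 CPM at 150 min against 53.6 CPM at 0 min while unlabelled reads were 71.6 against 16.0 CPM, and in Cnot1 unlabelled reads were above labelled reads in every library.

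Levels per length of the deposited gene model (CPM per kb, mean ± SD over the 6 libraries) differed more than they did over time. Cnot1 was highest at 68.4 ± 6.63, followed by Elavl1 at 27.7 ± 1.42, Zfp36l2 at 21.6 ± 3.44, Cnot7 at 19.1 ± 3.00, Cnot6 at 18.0 ± 4.04 and Btg1 at 17.1 ± 4.83. Zfp36l1 had 13.9 ± 2.00, Ago2 10.7 ± 0.876, Pan3 9.51 ± 1.20 and Zfp36 2.52 ± 0.271. From Zfp36l2 to Zfp36l1, neighbours in this order differed by less than the SD of the more variable one, and so did Ago2 and Pan3. Cnot1 lay above, and Zfp36 below, every other member in every library.

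Other genes of the pathway were described by 7 lists, in which 40 of 52 tested genes fell in labelled share, 0 rose and 12 did not pass, with a median decline of 0.382 per h against 0.247 per h over all genes. The counts of each list are to be read against the 52.3% of all genes that fell. Of 9 other CCR4-NOT subunits 8 fell, from Cnot8, the paralog of Cnot7, at 69.5 min to Tnks1bp1, a partner of the complex, at 161 min. Cnot10 did not pass (limma adjusted p = 0.144). Of 6 other deadenylases 5 fell, from Pde12, a mitochondrial nuclease, at 61.6 min to Angel1 at 123 min. Parn, a poly(A)-specific nuclease, was not called (limma adjusted p = 0.084).

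All 4 tested relatives of Btg1 fell. Tob1, which links CCR4-NOT to poly(A) binding protein, had the shortest half-life of the lists at 40.1 min and was 5.84% labelled at 150 min against 86.6% at 0 min. Tob2 had 50.0 min, Btg2 69.4 min and Btg3 94.6 min, and Btg4 averaged under 1 read and was not tested. Total reads of Btg2 had a slope of -0.87 log2 per h that did not pass (edgeR adjusted p = 0.0913). With Btg1 at 52.6 min, 3 of the 5 tested BTG and TOB genes lay under 60 min.

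Of 12 other tested mRNA-binding proteins 10 fell, from Elavl2, a relative of Elavl1, at 53.5 min to Tial1 at 122 min. Khsrp, which promotes decay of AU-rich mRNAs, and Celf1 did not pass (limma adjusted p = 0.757 and 0.187). All 5 tested Argonaute and TNRC6 genes fell. Among them Tnrc6a, the GW182 scaffold that joins Argonaute to deadenylases, had 56.3 min, Tnrc6c 76.1 min, Ago3 79.6 min, Ago1 98.3 min and Tnrc6b 112 min. Ago2 itself was not called, and the difference between Ago2 and its relatives was not tested.

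Of 11 decapping and 5′ decay genes 8 fell, from the decapping cofactor Dcp1b at 46.8 min to the scaffold Edc4 at 173 min. Dcp2, the decapping enzyme, Ddx6 and Dcps did not pass (limma adjusted p = 0.21, 0.117 and 0.332). Of 5 poly(A) binding protein genes and their partners 0 fell by limma at the adjusted threshold, and 0 had an unadjusted p under 0.05. Their labelled shares at 150 min and 0 min were 20.3% against 17.9% for Pabpc1 and 22.4% against 28.6% for Pabpc4. Pabpn1, the nuclear poly(A) binding protein, had 23.1% against 38.2%, and the regulators Paip1 and Paip2 had 27.2% against 37.7% and 23.1% against 26.9%. Of 55 genes of the lists tested for total reads, 0 passed by edgeR and 17 had an unadjusted p under 0.05, against 3416 of all 15743 genes tested.

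**Figure D4:**
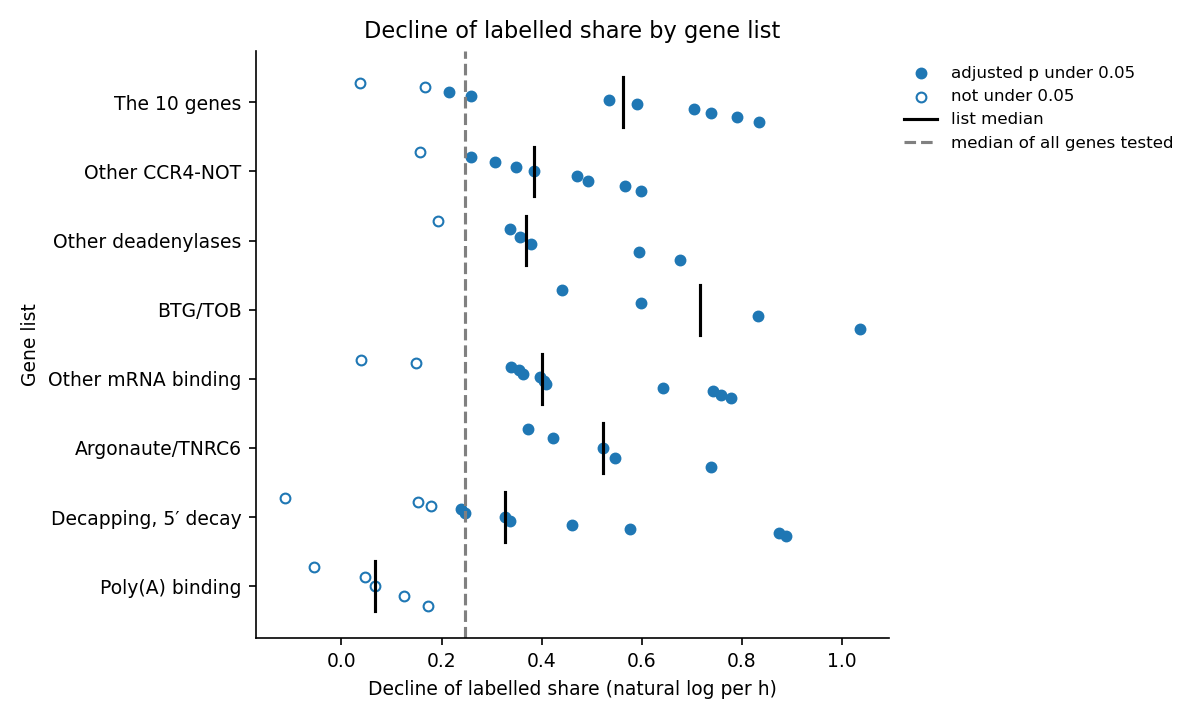
Decline of the labelled share per hour (horizontal axis) for the 10 genes and for the other pathway genes by list (rows), with 1 point per tested gene, filled where the adjusted p was under 0.05 by limma, a black bar at each list's median and a dashed line at the median of all genes. The 5 poly(A) binding genes lie left of 0.2 per h, and Tob1 lies furthest right at 1.04 per h.

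The gene most like each member in labelled share over the 6 libraries was sought among 7531 genes averaging 500 reads or more, by the root mean square difference of ln share. Cnot6 was closest to Bnc2 (0.0154, 15.8% at 150 min against 72.8% at 0 min) and Zfp110. Ago2 was closest to Tomm5 (0.0178) and Samd4b, and Cnot1 to Ran (0.0263) and Capzb. Pan3 lay nearest to Rbm33 (0.0273) and Noa1, Cnot7 to Cdc42bpa (0.0349) and Ewsr1, and Elavl1 to Btrc (0.0407) and Pabpn1 (0.0463). Zfp36l1 lay nearest to Klhl28 (0.0386) and Calhm2, Btg1 to Dtl (0.04) and Fem1a, and Zfp36l2 to Rnf168 (0.0411) and Tet3. Zfp36 had no gene as close, with Tymp at 0.203 and Kctd18 at 0.216. With 123 to 197 reads per library, Zfp36 lay below the minimum of 500 set for the genes compared. The effect of its depth on these distances was not tested.

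Whether reads were counted by strand is not stated. Exons of 7 of the 10 members overlapped exons of a gene on the other strand. Of those genes, 4 were in the table, and they were Zdhhc2 at Cnot7 (602 reads per library on average), Ccl25 at Elavl1 (434), Chrac1 at Ago2 (366) and Gm26669 at Zfp36l1 (10.8). No such overlap was annotated for Btg1, Cnot6 or Pan3.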

How the data were processed

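Reads had been aligned with STAR 2.5.2b to mm10, per the submitters' processing notes, and no label or header names the program or annotation release behind the gene table. Per its header, the deposited table holds read counts per gene, not normalized, with T>C conversions and covered T positions rounded to 4 significant digits. It also holds the authors' labelled fraction of reads as a posterior mean, mode and 5% and 95% quantiles, printed here as percent, with an underlying conversion rate that is not stated. Another 18 columns were not used.

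Slopes on time (4 residual degrees of freedom) of ln labelled share and ln T>C rate were tested with limma 3.58.1 for genes averaging 100 reads or more with values above 0, and slopes of counts with edgeR 4.0.16 (quasi-likelihood, TMM, filterByExpr), in R 4.3.3. DESeq2 1.42.0 was an alternative. The Benjamini-Hochberg threshold was 0.05 over all genes tested. CPM is counts per 1000000 gene reads of a library, scaled by TMM, and labelled CPM is CPM times labelled share. Pairs of members were compared by an exact permutation test over all orderings of the times, which treats libraries as exchangeable. The limma fit of labelled share and the edgeR fit of counts were run on simulated data with known answers. The simulated noise was independent between genes, so deviations that genes share within a library were not covered. The other steps were not tested in this way.

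Reads counted to genes of the table numbered 18558073 to 28535162 per library, which is not the full sequencing depth. Posterior ranges and Wilson intervals cover 1 library's counting only. Of 23281 gene IDs 23223 (99.8%) matched GENCODE M21, and 10 of 10 members did. The annotation's build, GRCm38, is that of mm10, and 3′ UTRs were the longest per gene among basic transcripts. The members and lists were chosen with earlier results of these data known. Named genes are the members, the extremes of each list among called genes, every gene of lists with at most 5 measured, and the 2 genes most like each member. Genes named besides as not called, and Pan2, Btg4 and Ago2's relatives, were chosen after their values were seen.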

Additional observations from a re-analysis of the deposited data

How the results depend on the processing

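No paired analysis was possible because every washout time had a single library. Of the 8 members that fell in labelled share, Zfp36, Zfp36l2, Cnot6 and Pan3 kept their call under every alternative run, except that Zfp36 was not tested at the higher read minimum, and Zfp36l1 and Btg1 lost it only with posterior weights (adjusted p = 0.0788 and 0.0513). With those weights 4 members and 2949 genes fell. The slope of every member was shallower with them, so the half-lives were longer. Leaving out each library in turn gave 3594 to 6318 genes and 6 to 8 members that fell in labelled share, with the lowest count of genes without the 150 min library. For the T>C rate it gave 2643 to 9213 genes and 5 to 10 members, the lowest of both without the 150 min library. For total reads it gave 0 to 635 genes lower and 0 to 778 higher, the highest without the 60 min library. After exchange of the 30 and 60 min times, 1294 genes and 1 member were lower and 1590 genes and 2 members were higher in total reads. Without both of those libraries 234 genes were lower and 325 higher, with DESeq2 341 and 309, and without a read filter 225 and 174. Leaving out libraries turned the sign of 4 slopes of total reads that were not called, with ranges of -0.0123 to 0.145 log2 per h for Zfp36, -0.00707 to 0.117 for Pan3, -0.0587 to 0.0390 for Elavl1 and -0.0818 to 0.0488 for Ago2. Pairs that passed numbered 27 with the times exchanged and 0 to 26 with a library left out. The causes were not tested. Zfp36, with 123 to 197 reads, is the member most limited by depth.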
